A study of Mus musculus with 257 samples.

Results

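Cerebella of 5 Shh-model mice labelled BPtchD-FLFL, with both X-linked copies of Ddx3x floxed, were compared with cerebella of 5 Shh-model mice labelled BPtch, which carry no Ddx3x alteration, all at postnatal day 5 (P5). The 10 libraries were taken by their genotype, age and tissue labels from 257 libraries of the series, of which 60 are P5 cerebella and 20 are P5 cerebella of the Shh background. The series profiled RNA of mouse cerebellum across development, and of tumours, with and without Ddx3x alleles in a normal, a Wnt-model and an Shh-model background. The labels give genotype codes without spelling them out. As the study is known, B is Blbp-Cre, a recombinase driven by the promoter of Fabp7 (Blbp) in neural progenitors and radial glia, Ptch the Ptch1 allele of the Shh model and D the floxed Ddx3x allele. Both groups then share Blbp-Cre and the Ptch1 allele, whose form is not stated, and only cells of the Blbp lineage are open to recombination within a whole cerebellum that also holds other cells. The other P5 groups of this background are BPtchD-FLPlus, females with 1 floxed and 1 intact copy, and BPtchD-FLY, males with 1 floxed copy, 5 libraries each.

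DDX3X is an RNA helicase of the DEAD-box family that acts in translation initiation and RNA metabolism. Its X-linked gene has a Y-linked relative, Ddx3y, and human DDX3X is recurrently mutated in medulloblastoma of the WNT and SHH groups. PTCH1 is the receptor that holds the Shh pathway inactive, and loss of its function in the cerebellum keeps granule neuron progenitors dividing. At P5 these progenitors are dividing in the outer layer of the cerebellum, while Bergmann glia and astrocytes, which descend from radial glia, are maturing and microglia are spreading through the tissue.

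Ddx3x RNA did not pass the test for a difference between FL/FL and BPtch. Levels are in CPM, the count scaled to 1e+06 counts in the library, listed in the order of replicates 1 to 5. Ddx3x (ENSMUSG00000000787, chromosome X, 13280970 to 13294052, GRCm38) stood at 279, 414, 379.7, 306 and 329 CPM in FL/FL and at 547, 271, 290.5, 404 and 548 CPM in BPtch. The 5 FL/FL values lie inside the range of the BPtch values, and the log2 fold change was -0.25 ± 0.22 (SE; adjusted p = 0.767). BPtch replicates 2 and 3, the lowest controls, are male by the expression given in the next paragraph. The other male control, replicate 1, stood at 547 CPM, as high as the higher female control. Of the FL/FL libraries 4 of 5 lie below both female controls, replicates 4 and 5. The change was -0.66 with sex as a term (adjusted p = 0.261) and -0.44 without the 3 male controls (adjusted p = 0.466), not called under either. In the other genotypes Ddx3x stood at 345.9 to 491.2 CPM in FLPlus and at 174, 435.8, 180.2, 238.3 and 198 CPM in BPtchD-FLY. BPtchD-FLY replicate 2 is female by expression, and the other BPtchD-FLY libraries lie below all 3 male controls. Fabp7 itself, the gene whose promoter drives Cre and a radial glia marker, fell by 0.46 on the log2 scale, with 403, 499, 389, 359 and 538 CPM in FL/FL against 626, 586, 599.9, 537 and 676 in BPtch (adjusted p = 0.0314). The highest FL/FL library is slightly above the lowest BPtch library, and the other 4 are below all controls. The call was lost under 15 of 23 alternatives to the analysis, among them the sex term (adjusted p = 0.346), leaving out the male controls (adjusted p = 0.206) and leaving out any 1 of BPtch replicates 1, 2, 3 and 5 or FL/FL replicates 1, 3 and 4. Ptch1 stood at 125 to 207 CPM in FL/FL and 134 to 247 in BPtch and was not called (-0.09, adjusted p = 0.907). Which exons of Ddx3x are floxed is not given in the sources used here, so a transcript lacking them could still be counted, and a bulk cerebellum cannot tell cells without the transcript from fewer cells of a type or less RNA per cell.

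The sexes of the 2 groups differ. All 5 FL/FL libraries held 1056 to 1735 CPM of Xist, the RNA of the inactive X chromosome, and 0.0354 to 0.369 CPM of Ddx3y. Across BPtch, Ddx3y stood at 69.9, 52.9, 54.2, 0.0804 and 0.0662 CPM and Xist at 7.51, 4.17, 3.08, 1024 and 1549 CPM. So 3 of 5 controls were male and 2 female by expression, and sex and genotype overlap in part. One library labelled as male, replicate 2 of BPtchD-FLY, goes against its label with Xist at 1758 and Ddx3y at 0.303 CPM. It enters the main comparison only through the shared estimate of spread. Where sex is a term, it counts as female and also helps to set that term. Totals ran from 16485559 to 72864778 counts in the 20 libraries, and no pair within a group agreed within sampling noise. Libraries also differed in neighbouring tissue. The summed midbrain markers reached 301.7 and 201.3 CPM in FL/FL replicates 1 and 4 and 251.2 and 218.5 in BPtch replicates 2 and 3, and Mki67, a gene of dividing cells, ran from 63.4 to 327 CPM in FL/FL and from 45.5 to 559.5 in BPtch.

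**Figure D1:**
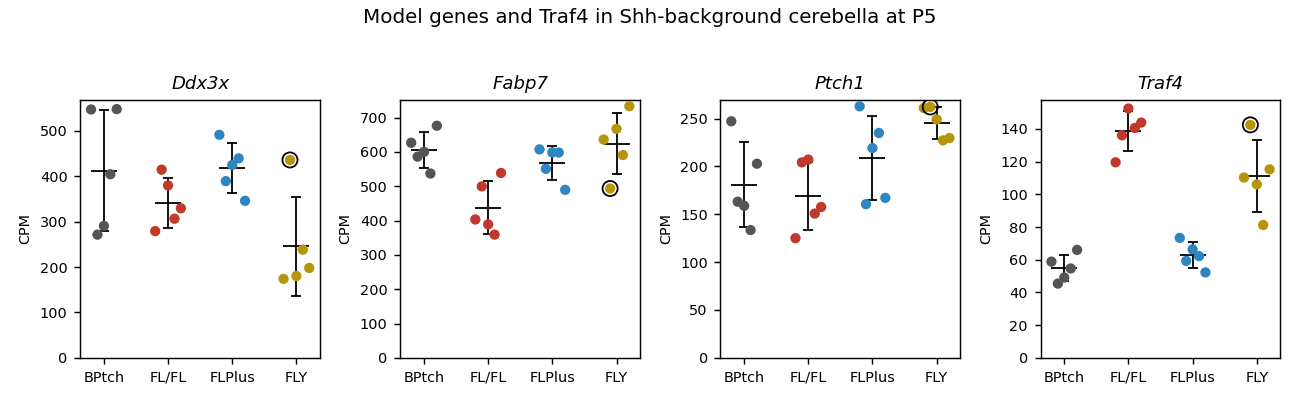
Levels in CPM (y axes, from 0) of Ddx3x, Fabp7, Ptch1 and Traf4 in the 4 genotypes of the Shh background at P5; points are libraries, bars the mean and SD of 5, and the ringed point is the library labelled BPtchD-FLY replicate 2. Ddx3x overlaps between FL/FL and BPtch, whereas Traf4 lies at 119.6 to 152 CPM in FL/FL and 45.4 to 66 in BPtch.

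Against BPtch, more genes were higher than lower in FL/FL cerebella. Of 19570 genes tested, 351 passed an adjusted p of 0.05 in edgeR's quasi-likelihood test and are said to be called, 1.79% of the genes. Of these 289 were higher in FL/FL (1.48%) and 62 lower (0.317%), and 62 of the rises and 25 of the falls exceeded 1 log2 unit. The 5 FL/FL and 5 BPtch libraries did not overlap for 254 of the higher and 41 of the lower genes. Over all genes tested they did not overlap for 456 in the upward direction (2.33%) and for 199 in the downward direction (1.02%). The calls included 10 of the 820 genes tested on the X chromosome, 8 of them higher, and 5 on the Y chromosome, all lower. Genes on the X chromosome made up 4.19% of the genes tested. Without BPtch replicate 5 the count was 223, with the sex of the library as a term 86, and without the 3 male controls 164, of which 132 were among the 351. With midbrain and hindbrain marker scores as terms it was 1012 and held all 351, and without the 4 libraries highest in midbrain markers it was 170. The labels do not say that the libraries of a group come from separate litters, so each p reflects only the spread among them. Sample names end in numbers, some of which lie close together across groups. Those of FL/FL replicates 1 and 2 lie close to BPtchD-FLY replicates 3 and 4. That of FL/FL replicate 4 lies close to BPtch replicates 2 and 3 and BPtchD-FLY replicate 5. Midbrain markers summed to 201.3, 251.2, 218.5 and 46.63 CPM in these 4 libraries, in that order. What the sample numbers stand for is not stated, and their part in the results was not tested.

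The smallest p belonged to Traf4 (ENSMUSG00000017386, chromosome 11, 78158499 to 78165589), an adaptor of TNF receptor family signalling. It stood at 119.6, 136, 152, 141 and 144 CPM in FL/FL and 58.8, 45.4, 49.1, 54.7 and 66 in BPtch. All FL/FL libraries lie above all controls, and the log2 fold change was 1.35 ± 0.11 (SE; adjusted p = 4.99e-06). Prkd1, protein kinase D1, held 22, 20.7, 19.9, 21.3 and 25.6 CPM in FL/FL against 8.2, 9.9, 9.91, 8.04 and 10.2 in BPtch. Those 5 and 5 values are also apart, with a change of 1.25 ± 0.12 (SE; adjusted p = 2.04e-05). Kif1c, a kinesin motor gene, rose by 1.39, with 189.5 to 248 CPM in FL/FL against 73.2 to 91.8 in BPtch, and Mtss1l, for a membrane-bending protein, by 1.29. Glis2, a zinc finger gene related to the Gli factors, rose by 0.70, Spata6 by 0.99, the ubiquitin ligase gene Kcmf1 by 0.78 and Gna13, a G protein alpha subunit, by 1.07. Each of these 8 genes was called under all 23 alternatives to the analysis. Over the 351 genes, 67 were called under all 23, 61 of the 289 higher and 6 of the 62 lower genes. Mtss1l and Gna13 were chosen after their values were seen.

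**Figure D2:**
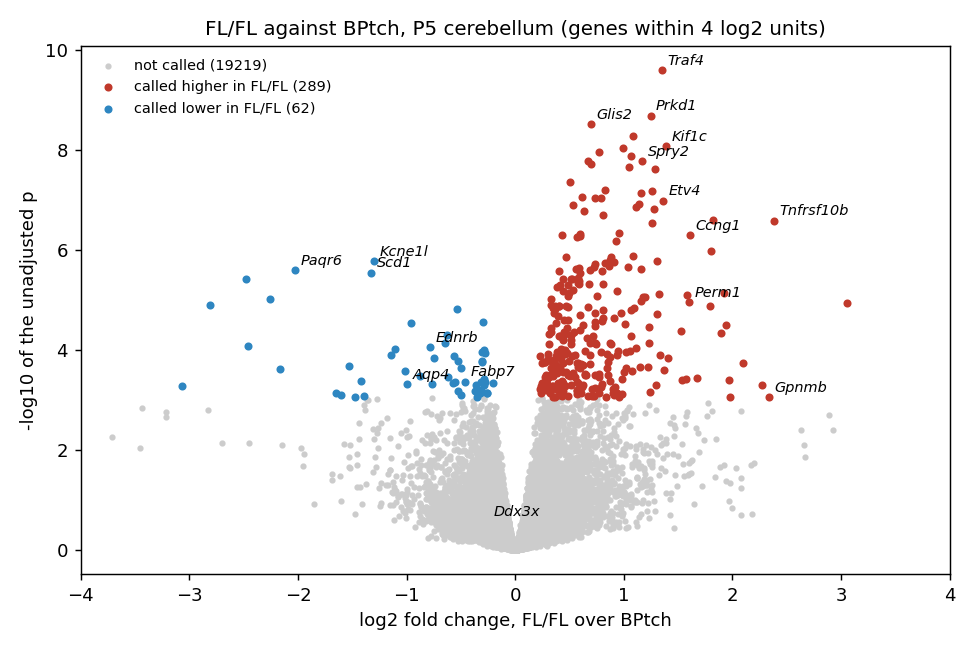
Log2 fold change of FL/FL over BPtch (x axis) against minus log10 of the unadjusted p (y axis) for each gene tested; red and blue mark the 289 genes called higher and the 62 called lower. Called genes lie mostly to the right, Ddx3x lies at the bottom near 0, and 8 genes beyond 4 log2 units are outside the plot.

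Genes induced by p53, the transcription factor that responds to DNA damage and other stresses, were among the rises. Of 22 targets listed, 21 were tested, 6 rose, none fell and 19 had a positive fold change, where 1.48% of all genes were called higher. Their median log2 fold change was 0.489, beside -0.0291 over all genes. In the upward direction 10 of the 21 did not overlap between the 2 groups, where 2.33% of all genes did not. Summed over the list, FL/FL libraries held 1007 to 1212 CPM and BPtch libraries 690.8 to 774.8.

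Ccng1 (ENSMUSG00000020326, chromosome 11, 40748552 to 40755311), the gene of cyclin G1, stood at 179.6, 175, 183, 152 and 196 CPM in FL/FL and at 54.7, 64, 63.8, 52.3 and 54.7 in BPtch. Every FL/FL library held more than 2 times the highest control, and the change was 1.61 ± 0.22 (SE; adjusted p = 0.000293). Tnfrsf10b (ENSMUSG00000022074, chromosome 14, 69767472 to 69784411), the death receptor for TRAIL, stood at 6.63, 6.75, 9.66, 5.6 and 6.96 CPM against 1.74, 0.567, 0.988, 1.89 and 1.62. It was the largest rise of a gene above a mean log2 CPM of 1, by 2.38 ± 0.31 (SE; adjusted p = 0.000178), and the groups are again apart. Ephx1, microsomal epoxide hydrolase, held 13.9, 21.3, 24.2, 21.4 and 24.7 CPM against 8.84, 8.5, 8.81, 8.16 and 7.35, and FL/FL replicate 1 is the lowest of its group. Its change was 1.34 ± 0.28 (SE; adjusted p = 0.0136).

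The other called targets changed by less. Ei24, an endoplasmic reticulum protein gene, stood at 144, 143, 136, 139.7 and 154 CPM in FL/FL against 104, 106, 104, 103 and 104 in BPtch, a change of 0.47 ± 0.07 (SE; adjusted p = 0.000674). The 5 controls lie within 3 CPM of each other. Zmat3, for an RNA-binding zinc finger protein, rose by 0.49 (adjusted p = 0.00205) and Aen, an apoptosis-enhancing nuclease gene, by 0.38 (adjusted p = 0.0238). Cdkn1a, the inhibitor of cyclin-dependent kinases p21, held 88.2, 84.7, 122, 112 and 99.7 CPM in FL/FL and 45.5, 78.2, 70.5, 69 and 52.9 in BPtch. The groups do not overlap, yet its change of 0.67 ± 0.19 (SE; adjusted p = 0.093) missed the threshold. Mdm2, the ubiquitin ligase that degrades p53, overlapped between groups (0.30, adjusted p = 0.177). With the sex term Ccng1, Tnfrsf10b and Ei24 kept their calls (adjusted p = 0.0291, 0.0045 and 0.0145). The other 3, Zmat3, Ephx1 and Aen, lost theirs (adjusted p = 0.0666, 0.333 and 0.349), and Ephx1 and Aen lost them without the male controls as well. Aen was called under 11 of 23 alternatives. Of the list 5 to 7 members were called and its median was 0.468 to 0.527 with any 1 of the 10 libraries left out.

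**Figure D3:**
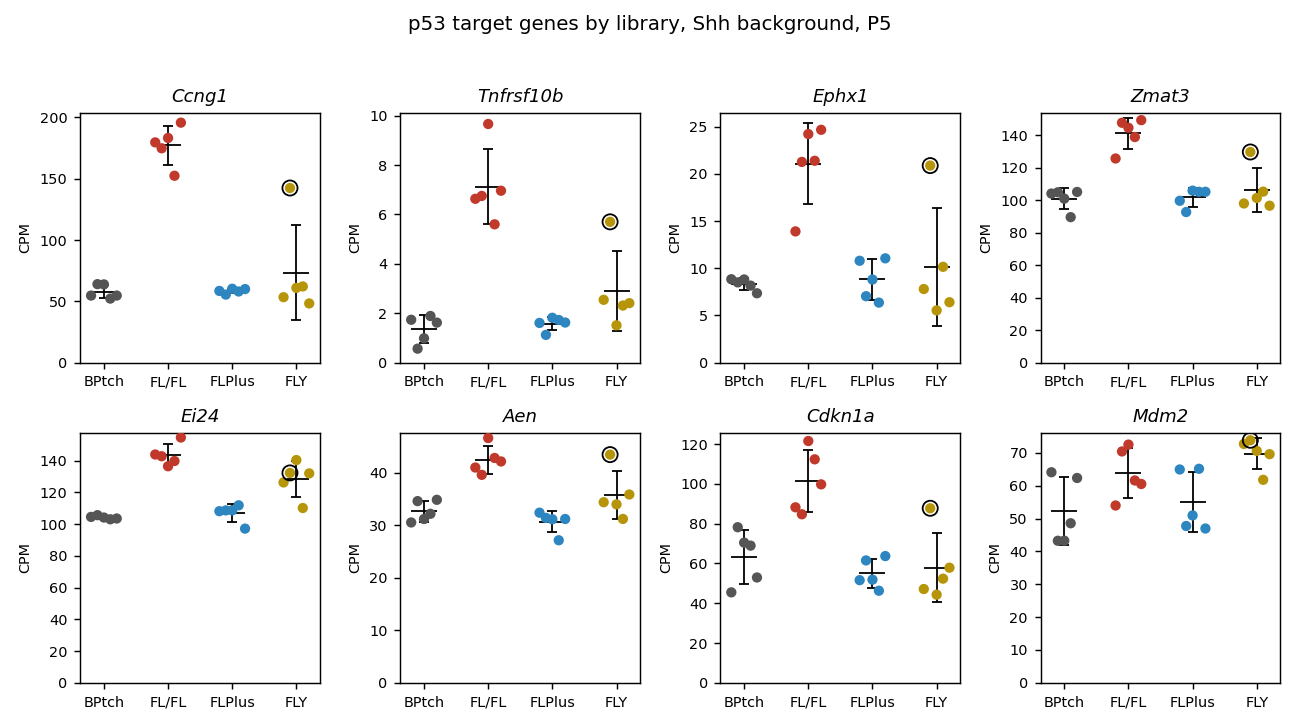
Levels in CPM (y axes, from 0) of 8 p53 target genes in the 4 genotypes of the Shh background at P5; points are libraries, bars the mean and SD of 5, and the ringed point is the library labelled BPtchD-FLY replicate 2. Ccng1 lies at 152 to 196 CPM in FL/FL and at 52.3 to 64 in BPtch, and the ringed library holds 142.4.

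The start of Ccng1 is shown because Ccng1 is the target called higher whose window holds a match to the p53 consensus. RefSeq promoter windows (GRCm38.p6) of 250 bases before the start were searched on both strands, which read alike for this palindromic motif, for the consensus of 2 half-sites without a spacer, allowing 1 mismatch outside the 4 core C and G bases. Capitals mark the matched 20 bases, and the window of Ccng1 is chr11:40755287-40755536 on the minus strand, given 5′ to 3′.
Ccng1: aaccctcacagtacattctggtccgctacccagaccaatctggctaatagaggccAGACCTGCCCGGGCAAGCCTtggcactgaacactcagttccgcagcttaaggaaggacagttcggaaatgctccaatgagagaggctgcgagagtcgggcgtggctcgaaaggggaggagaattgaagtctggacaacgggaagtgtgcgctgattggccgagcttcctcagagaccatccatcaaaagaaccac
Cdkn1a: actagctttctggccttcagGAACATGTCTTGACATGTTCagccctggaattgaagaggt
Rps27l: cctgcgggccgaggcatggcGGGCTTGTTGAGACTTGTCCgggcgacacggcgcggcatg
The match in Ccng1 lies 195 to 176 bases before the start, that in Cdkn1a 51 to 32 and that in Rps27l 117 to 98 bases before it. Of all 32851 windows, 19 held such a match, 0.0578%. Of the 22 listed targets, 17 were in the table and 3 held one, and of 228 genes called higher that were in the table, Ccng1 was the one with a match. The 3 genes with a match behaved differently here: Ccng1 rose, Cdkn1a was higher in each FL/FL library without passing the threshold, and Rps27l, a ribosomal protein gene relative induced by p53, overlapped between the groups (0.23, adjusted p = 0.759). A match is a description of letters and shows no binding.

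Genes of a list for FGF-ERK feedback were also among the rises. The list holds Sprouty genes and other inhibitors of the pathway, and also ETS factor genes and FGF receptor genes. Of 14 listed, all tested, 5 rose and none fell, where 1.48% of all genes were called higher, with a median of 0.262 and 11 positive. With 1 library left out 3 or 4 members were called. Etv4 (ENSMUSG00000017724, chromosome 11, 101769742 to 101785371), an ETS transcription factor gene induced by ERK, stood at 84.1, 69, 75.2, 81.4 and 87.1 CPM in FL/FL against 29.3, 27.6, 35.6, 30.03 and 32.6 in BPtch. The groups are far apart, and the change was 1.36 ± 0.17 (SE; adjusted p = 9.74e-05). Spry2, a Sprouty inhibitor of the pathway, held 57.6, 63.6, 55.8, 53.9 and 63.1 CPM against 25.5, 26.7, 25.1, 25.6 and 28.5, with a change of 1.17 ± 0.13 (SE; adjusted p = 3.35e-05). Here too every FL/FL library is above every control.

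Spry1 rose by 0.82 (adjusted p = 0.000764), Spry4 by 0.40 and the inhibitor gene Spred1 by 0.35, the last 2 with adjusted p of 0.047 and 0.0266. Dusp6, the phosphatase gene of ERK, was not called (0.59, adjusted p = 0.0615), and Etv5 overlapped between the groups (0.30). Further genes of the route, chosen after their values were seen, also rose: Erf, an ETS repressor controlled by ERK, by 0.93, the RAS exchange factor Sos2 by 0.47 and Ptpn11, the phosphatase SHP2, by 0.28. Etv4, Spry2, Erf and Sos2 were called under all 23 alternatives, Spred1 under 11, Ptpn11 under 7 and Spry4 under 5. With the sex term Etv4, Spry2 and Spry1 kept their calls, while Spry4 and Spred1 lost theirs (adjusted p = 0.435 and 0.266). Without the male controls Etv4 and Spry2 were the members of the 5 still called.

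Of 13 microglia markers 1 was called higher, where 1.48% of all genes were. All 13 had positive fold changes, with a median of 0.618, and 6 did not overlap upward, where 2.33% of all genes did not. The markers summed to 288.1 to 402.3 CPM in FL/FL and 206.6 to 276.5 in BPtch, so these groups do not overlap. Ctss (ENSMUSG00000038642, chromosome 3, 95526786 to 95556403), cathepsin S, held 17.1, 25.9, 29.8, 25.9 and 23.5 CPM in FL/FL against 12, 15.6, 14.8, 11.2 and 13.7 in BPtch. The lowest FL/FL library is above the highest control, and the change was 0.85 ± 0.18 (SE; adjusted p = 0.0167). Cx3cr1, the fractalkine receptor of microglia, reached 37.3 to 47.1 CPM against 24.5 to 37.7 and was not called (0.56, adjusted p = 0.332).

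Among 10 genes of phagocytic microglia 2 rose (1.48% of all genes were called higher) and 9 were positive, with a median of 0.985. Their sum overlapped between the groups, with 681.8 to 1111 CPM in FL/FL and 744 to 1177 in BPtch. Gpnmb, a glycoprotein gene of lipid-laden phagocytes, stood at 4.9 to 24.6 CPM in FL/FL and 0.876 to 4.93 in BPtch. It rose by 2.33 ± 0.59 (SE; adjusted p = 0.0492), FL/FL replicate 1 lies inside the control range, and 16 of 23 alternatives lost the call. Csf1, the growth factor of microglia, rose by 0.46 (adjusted p = 0.0121). Further myeloid genes, chosen after their values were seen, rose too: the receptor genes Tlr7 (1.23), Tlr4 (0.70), C3ar1 (0.96), Fcgr2b (0.72) and Havcr2 (1.06), Mertk, which binds dying cells for uptake, by 0.97, and the lysosomal gene Laptm5 by 0.79. H2-K1, a class I antigen-presenting gene, rose by 0.94 (adjusted p = 0.0433), with BPtch replicate 3 at the level of the lowest FL/FL libraries. Of these 11 genes Ctss, Csf1, Tlr7, Havcr2 and Mertk were called under at least 18 alternatives. With the sex term Csf1 was the one of the 11 still called (adjusted p = 0.0461). Ctss then had an adjusted p of 0.3, Gpnmb of 0.482, Tlr7 of 0.241, Havcr2 of 0.233 and Mertk of 0.0701. Without the male controls Csf1, Mertk and H2-K1 were still called. Without BPtch replicate 4 or BPtch replicate 5 Ctss was not called, and no microglia marker was.

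Other large rises belonged to no listed group. Ddit4l, an inhibitor of mTORC1 signalling, stood at 11.4, 11, 12.2, 12.1 and 13.8 CPM against 2.79, 3.56, 3.95, 2.29 and 3.41. Each FL/FL library is above 2 times each control, and the change was 1.92 ± 0.32 (SE; adjusted p = 0.00189). Gcnt4, a glycosyltransferase gene, rose by 1.80, the ubiquitin ligase gene Trim47 by 1.90, Zbtb42, a zinc finger repressor gene, by 1.82 and Prrg4 by 1.94. At the cell surface and in the matrix, Cd109 rose by 1.79, the scavenger receptor Cd36 by 1.68 and the collagen chain Col5a3 by 1.58, with 15.1 to 44.8 CPM of Col5a3 in FL/FL against 9.64 to 11.2. Perm1, a regulator of mitochondrial genes, rose by 1.60. Single members of other lists were the stress transcription factor gene Atf5, by 0.87 (1 of 17 of the integrated stress response), and the immediate early gene Fos, by 1.02 (1 of 11). Over all genes 1.48% were called higher. Chosen after their values were seen, the transcription factor gene Klf4 rose by 1.31 and the prolyl hydroxylase genes Egln3 and Egln1 by 1.12 and 0.43. These 3 were called under all 23 alternatives.

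Of 12 astroglia markers 1 fell, Aqp4, where 0.317% of all genes were called lower. The list median was -0.21, and 2 members had positive fold changes. Aqp4 (ENSMUSG00000024411, chromosome 18, 15389496 to 15410982), the water channel of astrocytes, stood at 272, 307, 176, 294 and 411 CPM in FL/FL and 742, 600.2, 592, 399.6 and 599.5 in BPtch. FL/FL replicate 5 overlaps BPtch replicate 4, the others are apart, and Aqp4 fell by 0.99 on the log2 scale (adjusted p = 0.0335). It was called under 8 of 23 alternatives, and with 1 library left out only without BPtch replicate 4 or FL/FL replicate 5. Ednrb, the endothelin receptor of glia, held 166, 248, 163, 209 and 249.8 CPM against 459, 330.1, 357, 272 and 379 and changed by -0.78 ± 0.16 (SE; adjusted p = 0.0109). Every FL/FL library is under every control. Slc25a18, a mitochondrial glutamate carrier gene of astrocytes, changed by -1.02 ± 0.23 (SE; adjusted p = 0.0225), and FL/FL replicate 4, at 40.9 CPM, reaches into the control range of 39.2 to 58.1. Glul, the glutamine synthetase gene of astroglia, went the other way and was called higher, by 0.65. It was called under 12 of 23 alternatives and not with the sex term (adjusted p = 0.272).

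Of 10 radial glia markers only Fabp7 was called, where 0.317% of all genes were called lower. The list median was 0.0515, and the list summed to 2433 to 3280 CPM in FL/FL against 2154 to 2631. The glutamate transporter genes Slc1a2 and Slc1a3, which mark the same cells, were not called (-0.22 and -0.11, adjusted p = 0.784 and 0.938). Rfx4, a transcription factor gene of radial glia, and Dbi, the acyl-CoA binding protein, changed by -0.57 and -0.53, chosen after their values were seen. Their calls were lost under 15 and 6 of 23 alternatives.

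Scd1 (ENSMUSG00000037071, chromosome 19, 44394455 to 44407879), stearoyl-CoA desaturase, which makes monounsaturated fatty acids, stood at 54, 74.4, 56.4, 55.5 and 87.4 CPM in FL/FL against 162, 197, 205, 114 and 140.4. The highest FL/FL library is below the lowest control, and the change was -1.33 ± 0.20 (SE; adjusted p = 0.000956). The neighbouring copies Scd2 and Scd3, chosen after their values were seen, changed by -0.64 and -0.53 and also did not overlap, although reads shared between such similar genes could be counted for either. The call of Scd3 was lost under 16 of 23 alternatives and that of Scd2 under 4. All 14 genes of cholesterol synthesis had negative fold changes, with a median of -0.239. Of these 1 was called, Cyp51 (-0.32, adjusted p = 0.0433), where 0.317% of all genes were called lower. The call of Cyp51 was lost under 17 of 23 alternatives, among them the sex term (adjusted p = 0.431). The list summed to 1300 to 1689 CPM in FL/FL and 1864 to 1933 in BPtch, without overlap.

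The largest fall above the level limit was that of Paqr6, a membrane progestin receptor gene. It held 1.69, 2.82, 1.63, 2.57 and 2.47 CPM in FL/FL against 13.4, 6.34, 5.81, 6.59 and 14.7 and changed by -2.03 ± 0.31 (SE; adjusted p = 0.000911). Controls 1 and 5, which have the most Mki67, were the highest, and no FL/FL library reaches a control. Kcne1l, a potassium channel subunit gene on the X chromosome, changed by -1.30 and Tst, thiosulfate sulfurtransferase, by -0.96. Emp2 changed by -1.10, the ecto-ATPase gene Entpd2 by -1.14, Clec3b by -1.65, Phkg1 by -1.39 and the non-coding gene Sox1ot by -0.87. The calls of Clec3b, Phkg1 and Sox1ot were lost under 13, 16 and 11 of 23 alternatives, and those of Emp2 and Entpd2 under 3 each.

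The calls were repeated with sex and tissue makeup changed. The sex term was fitted over all P5 libraries of the Shh background and counts BPtchD-FLY replicate 2 as female. That library summed to 1093 CPM over the p53 list, and the other BPtchD-FLY libraries to 794.9 to 857.8 CPM. Its part in the calls lost with the sex term was not tested. With sex as a term 7 of the 62 lower genes were called against 77 of the 289 higher ones, and without the 4 libraries highest in midbrain markers 10 against 133. Without the 3 male controls the counts were 14 and 118. Paqr6, Kcne1l and Tst were called under all 23 alternatives, as were the 3 further lower genes Cyp4f14, Myoc and C2cd4d, named for this count. With the sex term Aqp4 had an adjusted p of 0.46, Ednrb of 0.246, Emp2 of 0.244 and Scd1 of 0.0449.

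**Figure D4:**
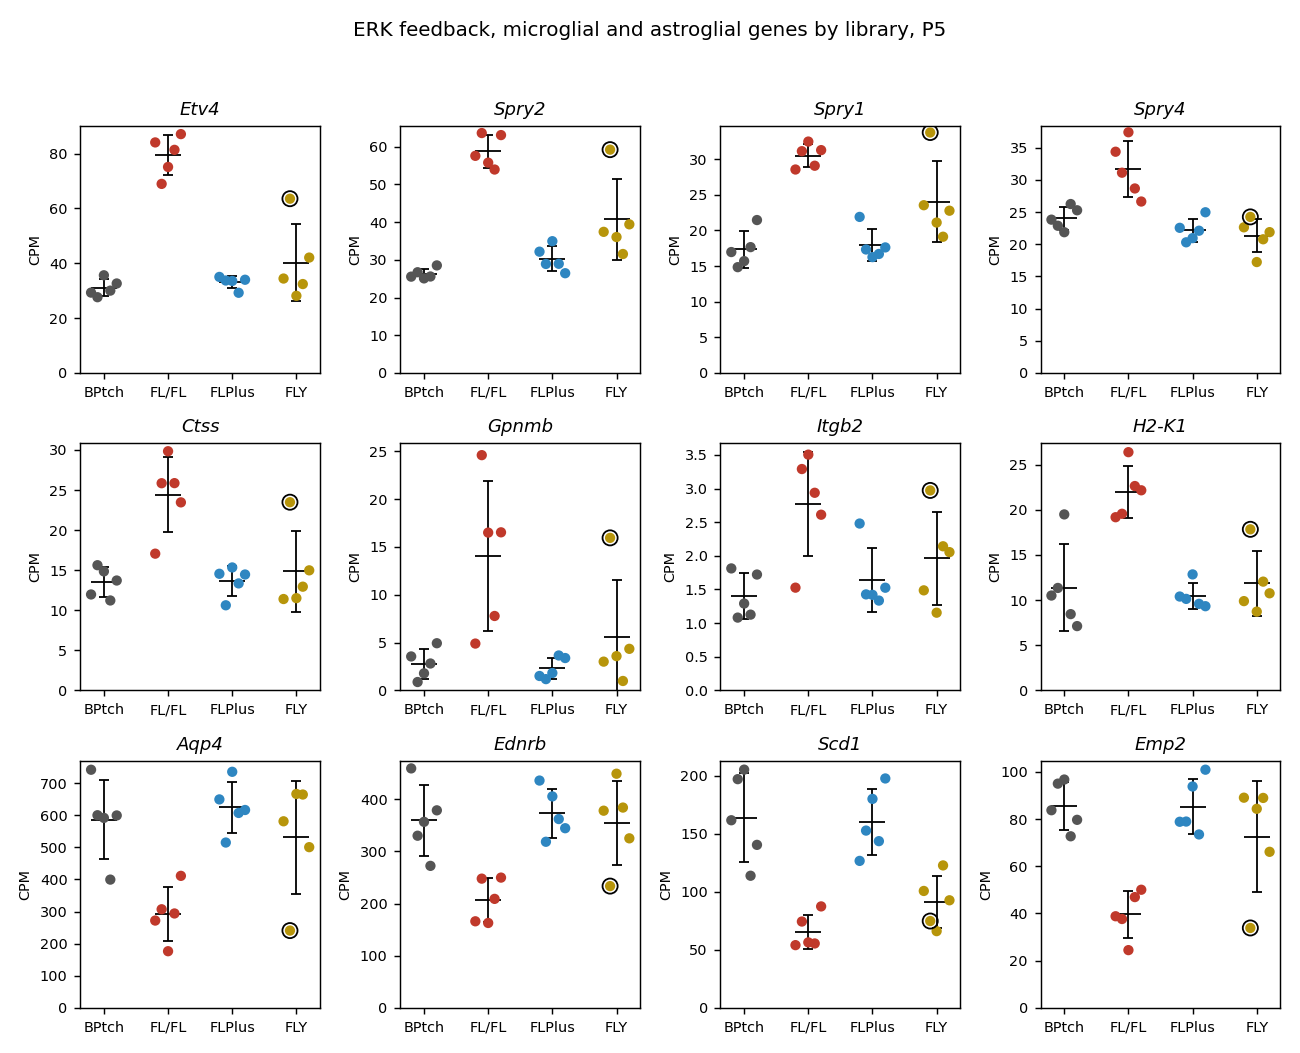
Levels in CPM (y axes, from 0) of 4 ERK feedback genes, 4 microglial or immune genes and 4 genes that fell, in the 4 genotypes of the Shh background at P5; points are libraries, bars the mean and SD of 5, and the ringed point is the library labelled BPtchD-FLY replicate 2. Etv4 lies at 69 to 87.1 CPM in FL/FL and at 27.6 to 35.6 in BPtch, and Scd1 at 54 to 87.4 against 114 to 205.

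Of 16 hindbrain progenitor factors 14 were tested, and the proneural genes Neurog1 and Neurog2 fell, where 0.317% of all genes were called lower. Neurog2 gave 2, 39, 10, 14 and 6 counts in FL/FL and 155, 7, 22, 68 and 226 in BPtch, which is 0.105, 0.738, 0.354, 0.424 and 0.218 CPM against 5.85, 0.361, 0.836, 2.73 and 7.48 (adjusted p = 0.0347). Neurog1 gave 0, 2, 0, 0 and 0 counts against 39, 0, 1, 20 and 74 (adjusted p = 0.0416). For Neurog2, BPtch replicate 2 lies inside the FL/FL range and BPtch replicate 3 just above it, and both are high in midbrain markers. Without the 4 libraries highest in those markers Neurog2 was called and Neurog1 was not (adjusted p = 0.0421 and 0.0619). Prdm13, a progenitor factor gene chosen after its values were seen, stood at 0, 0.624, 0.602, 0.454 and 0.544 CPM against 17.8, 0.206, 0.988, 5.31 and 16.6 (adjusted p = 0.0266). The calls of Neurog2, Neurog1 and Prdm13 held under 12, 10 and 11 of 23 alternatives. With the sex term their adjusted p were 0.134, 0.126 and 0.119, and without the male controls 0.0237, 0.0262 and 0.0191. With 1 library left out, 0 to 4 of the list were called, and 0 without any 1 of BPtch replicates 1, 4 and 5 or FL/FL replicates 1, 3, 4 and 5.

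None of 12 Shh pathway parts and none of 12 Shh targets was called, where 1.79% of all genes were. At that share a short list may hold no call, which also applies to the further lists of this paragraph. The medians of the parts and targets were 0.0425 and -0.0582, and Gli1 ranged over 12.1 to 44.9 CPM in FL/FL and 6.18 to 65.1 in BPtch. All 16 proliferation genes had negative fold changes with a median of -0.534 and none was called, the groups overlapping from 283.3 to 1230 CPM in sum in FL/FL and 241.2 to 1963 in BPtch. Granule progenitor markers had a median of -0.288 with no call. Interferon response and inflammasome genes had medians of 0.031 and 0.0434 and no call, and the 25 DEAD-box helicase genes a median of -0.105 and no call. All 11 Hox genes tested were positive, with a median of 1.02, and all 10 choroid plexus markers, with a median of 1.42, none called. Choroid plexus markers summed to 106.3 to 3234 CPM in FL/FL and 96.86 to 1329 in BPtch, and with their score as a term 194 genes were called, 180 of them among the 351. A gene that missed the threshold is not shown to be unchanged at this spread.

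Against the female FLPlus cerebella of the same background, which keep 1 intact copy of Ddx3x, 251 genes were higher and 61 lower in FL/FL (1.59% called in all). This contrast uses the same FL/FL libraries, so it is no independent support; both groups are female. Traf4 changed by 1.18 there and by 1.35 against BPtch, Ccng1 by 1.63 and 1.61, Etv4 by 1.30 and 1.36, and Scd1 by -1.26 and -1.33. FLPlus itself over BPtch stood at 0.17, -0.02, 0.06 and -0.06 for these 4 genes, and Ccng1 in FLPlus libraries at 58.5, 55.5, 60.3, 58 and 60.01 CPM, all between the lowest and highest controls. The p53 list had 8 members called higher against FLPlus (median 0.508), where 1.28% of all genes were called higher. Cdkn1a was among these 8 (0.91, adjusted p = 0.0179). Aqp4 changed by -1.05 (adjusted p = 0.0245) and Ednrb by -0.81 (adjusted p = 0.00954) against FLPlus. Against the 2 female BPtch controls alone neither was called (adjusted p = 0.298 and 0.191). The count was 197 without FLPlus replicate 2, 184 without replicate 3 and 206 without replicate 4.

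In the normal background FL/FL cerebella of P5 were also compared with controls (BD-FL-FL against WT, 5 and 5 other libraries). Unlike the BPtch label, the WT label holds no B. As the codes are read above, this contrast then also differs in Blbp-Cre, which cannot be told apart from the Ddx3x alleles in it. The same holds for the difference of the FL/FL effect between the Shh and the normal background. There 439 of 20091 genes were called (2.19%) in a fit of all 60 P5 cerebella. Of the 19491 genes tested in both, 174 were called in both, 49.6% of the 351 and 39.9% of the 436 of that background, and all 174 had the same sign. Of the 351 genes, 345 had the same sign (98.3%), beside 66.1% of all genes tested in both. The median of the 289 higher genes was 0.617 in the Shh and 0.467 in the normal background, and that of the 62 lower genes -0.692 and -0.837. By Ddx3y and Xist the BD-FL-FL libraries are all female and WT replicates 2 and 4 male, so part of the sex imbalance is common to both contrasts, and its part in the shared signs was not tested.

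In the Shh and the normal background Ccng1 changed by 1.61 and 1.496, Tnfrsf10b by 2.38 and 2.37, Traf4 by 1.35 and 1.09, and Aqp4 by -0.99 and -1.57. The p53 list had 10 members called higher in the normal background, with a median of 0.611, where 1.28% of all genes were called higher. The difference of the FL/FL effect between these backgrounds, tested as an interaction, called 0 genes with edgeR (376 at an unadjusted p under 0.05) and 1 with DESeq2. The 6 genes nearest to a difference were Dgke, Akr1b8, Entpd4, C1qtnf2, Cisd3 and Entpd4b, with Dgke at -0.05 in the Shh and 0.61 in the normal background.

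In the Wnt background (BDCP-FLFL against BCP) 408 genes were called (2.03%), 327 of them lower. By Ddx3y all BCP libraries are male (63.82 to 74.2 CPM) and all BDCP-FLFL libraries female (0 to 0.0942 CPM). Sex and genotype therefore cannot be told apart in this contrast. Of the 351 genes 43 were called there as well, 12.3% of the 351 and 11.4% of the 376, and 35 of these 43 had the same sign. Among all 351, 75.2% had the same sign beside 48.3% of all genes. The FL/FL effect differed between the Shh and Wnt backgrounds for 134 genes (0.667%), 119 of them higher in the Shh background. Lgr6, a receptor for R-spondins and among the 6 genes named for the smallest p of this difference, changed by 1.52 in the Shh and -1.39 in the Wnt background, a difference of 2.93 (adjusted p = 0.00064). Ccng1 changed by 1.61 and 0.40 (difference 1.22, adjusted p = 0.0215), Traf4 by 1.35 and 0.47 (adjusted p of the difference 0.0382) and Spata6 by 0.99 and -0.03. Fabp7 went opposite ways, -0.46 and 0.82 (adjusted p of the difference 0.00955). Etv4, with 1.36 and 0.96, was called in both and its difference of 0.42 was not. Of the p53 list no member was called in the Wnt background (median 0.126), where 0.403% of all genes were called higher and 1.63% lower.

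The count of 134 rested on single libraries. It was 306, 75 and 27 without BCP replicates 1, 3 and 4, and 85, 228, 56 and 86 without BDCP-FLFL replicates 2, 3, 4 and 5. Without BPtch replicates 4 and 5 it was 77 and 65. Xist changed by 8.50 in the Wnt and 1.47 in the Shh background, so the sexes of controls differ between the backgrounds too, and sex cannot be told apart from the background in this difference.

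**Figure D5:**
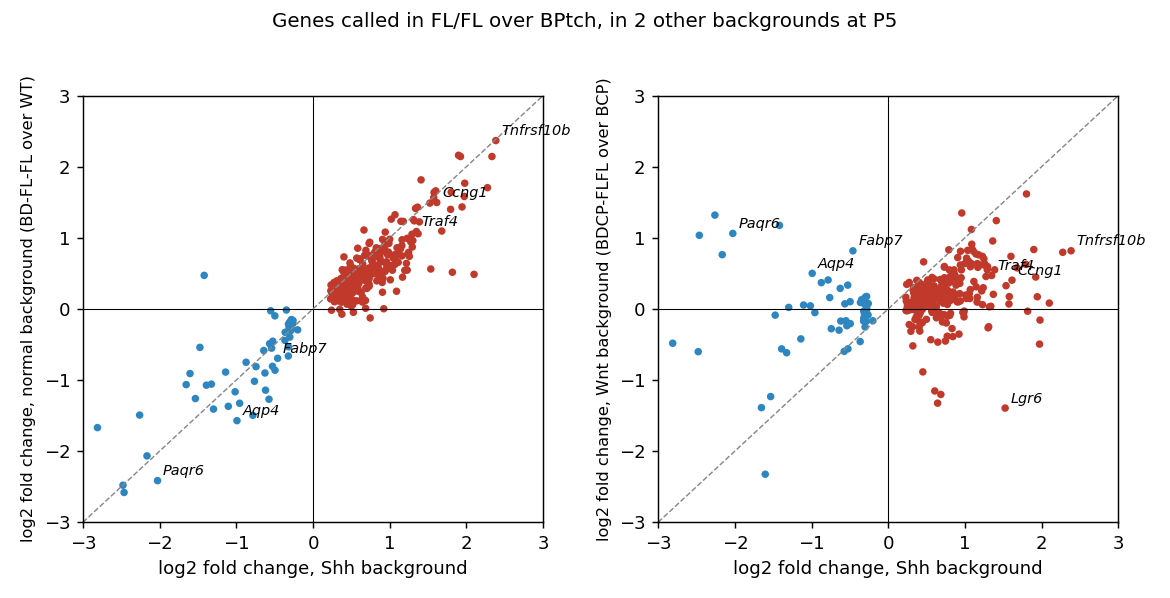
Log2 fold change of FL/FL over control in the Shh background (x axes) against that in the normal (left) and Wnt background (right) for genes called in the Shh background and not on the Y chromosome, 342 and 341 of them within 3 log2 units; red genes were called higher and blue ones lower, and the dashed line marks equal values. Points on the left follow the line in sign, with 98.3% of the 351 genes alike, and on the right 75.2%.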

How the data were processed

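RNA of whole cerebella was sequenced, and the authors deposited raw counts per gene (32075 genes). HISAT2, featureCounts and the build GRCm38 are named in the submitters' processing notes. Their versions, the annotation and the strand setting: not given in the sources used here. Gene symbols and overlaps came from GENCODE M21 (31759 genes matched).

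Counts were tested with edgeR 4.0.16 (R 4.3.3): TMM, filterByExpr (minimum count 10, total 15), quasi-likelihood F-test, two-sided, Benjamini-Hochberg over all genes, threshold 0.05. The 20 Shh-background P5 libraries (16485559 to 72864778 counts) formed 1 fit with a mean per genotype. Differences between backgrounds came from all 60 P5 libraries. The SE divides the absolute log2 fold change by the root of F. CPM used library totals without TMM factors. Alternatives included DESeq2 1.42.0.

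Groups came from the labels. Genes, lists and comparisons were chosen with earlier results of these data known. The text names the model genes, the 12 largest rises and 12 largest falls (mean log2 CPM of at least 1, without predicted and sex-linked genes), up to 4 members per list and 6 per further contrast by smallest p; any other gene was chosen after its values were seen, as were, among list members, Aen, Ephx1, Cdkn1a, Mdm2, Rps27l, Spry4, Dusp6, Etv5, Cx3cr1, Slc1a2, Slc1a3, Gli1 and Mki67 where the rule does not name them. Lists are described by counts and medians, with no set test. Of the named genes, Atf5, Cdkn1a, Cx3cr1, Cyp51, Dgke, Ei24, Entpd2, Entpd4, Entpd4b, Ephx1, Fcgr2b, Gcnt4, Gli1, Glis2, Glul, Gna13, Kif1c, Phkg1, Scd2, Slc1a2, Slc25a18, Spry1, Trim47 and Xist overlap exons of another gene, and reads of Ddx3x and Ddx3y, of Entpd4 and Entpd4b and of the H2 family may be shared between near copies.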

Additional observations from a re-analysis of the deposited data

Results flagged for a closer look

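Among 29 genes (the model genes and the largest rises and falls) in the 2 groups of 5, 2 of 58 groups held a library far from the other 4; chance gives about 1 in 20. Gcnt4 stood at 2.88 CPM in BPtch replicate 5 and at 2.37 to 2.51 in the other 4 controls. Slc25a18 stood at 40.9 CPM in FL/FL replicate 4 and at 15.6 to 22.4 in the other 4, and that library is also high in midbrain markers (201.3 CPM).

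For 12 genes the FL/FL effect differed between the Shh and the Wnt background by the interaction test. Of these, the 6 genes Cpne8, Syk, Lgr6, Tnfrsf19, Dgki and Glul were named for having the smallest p of this same test, so the number of genes says nothing about how common such differences are. The Shh minus Wnt difference on the log2 scale was 1.22 for Ccng1, 1.42 for Col5a3, 0.69 for Spry1, -1.27 for Fabp7 and -3.08 for Paqr6. It was 1.35 for Cpne8, 3.83 for Syk, 2.93 for Lgr6, 1.66 for Tnfrsf19, 1.41 for Dgki and 1.12 for Glul. For Xist it was -7.02, which follows the sex of the control libraries. Adjusted p of these 12 ran from 0.000168 (Cpne8) to 0.0432 (Col5a3). Syk stood at 0.26 in the Shh and -3.56 in the Wnt background, and Tnfrsf19, a Wnt target, at 0.38 and -1.27. Of 13 listed Wnt targets 8 were called lower in the Wnt background (median -1.15), where 1.63% of all genes were. In the Shh background none of 12 tested was called (median 0.0438), where 1.79% of all genes were.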

How the results depend on the processing

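The 351 calls were 671 with DESeq2 (347 shared), 196 with only the 10 libraries (185 shared), 86 with a sex term (84 shared), 1012 with midbrain and hindbrain scores as terms, and, in alternatives added after seeing the data, 194 with a choroid plexus score, 170 without the 4 libraries highest in midbrain markers and 164 without the male controls. Leaving out each library gave 223 to 311. The calls against FLPlus were 580 with DESeq2 and 184 to 297 with 1 library left out. The difference from the normal background called 0 genes in edgeR under each alternative run, libraries left out in turn included (0 to 0), and 1 with DESeq2. The difference from the Wnt background was 220 with DESeq2, 74 without the low-count filter and 27 to 306 with 1 library left out. DESeq2 size factors, the listing run and dropping the library labelled BPtchD-FLY replicate 2 kept each count within 1.5 times (415 without that library for the main comparison). Ddx3x stayed uncalled and negative throughout (-0.354 to -0.149 with 1 library left out, -0.665 with the sex term). Y-linked genes turned sign where sex was modelled or males removed: Ddx3y to 0.28 and Uty to 1.54 with the sex term, and Ddx3y to 0.89, Uty to 1.17 and Eif2s3y to 0.35 without the male controls. The cause was not tested beyond these settings.

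Replicate numbers did not pair the libraries. Correlations of same-numbered deviations were -0.561, -0.65, -0.449, 0.114 and -0.0953, and no FL/FL library matched the BPtch library of its own number best. With the replicate number as a block (replicate block) the main count was 234, that against FLPlus 212, and those of the background differences 0 and 117. Fewer calls under the block are not a weaker effect. Low-count genes such as Neurog1 rest on 0 to 74 counts a library, and depth limits them.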
